A study of Mus musculus with 15 samples.

Results

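C-type lectin receptors are the cell surface proteins through which macrophages bind sugars and lipids of fungi, mycobacteria and dying cells, and 9 of their genes were followed here: *Clec4a2*, *Clec4d*, *Clec4e*, *Clec4n*, *Clec5a*, *Clec7a*, *Clec10a*, *Clec12a* and *Cd209a*. They were taken by gene symbol from an expression table of 20089 complete gene entries, and all 9 were among the 11743 genes whose mean level allowed a test. The samples were bone marrow-derived macrophages (BMDMs) of wild-type C57BL/6 mice, cells that M-CSF (macrophage colony-stimulating factor) drives out of marrow precursors in culture, and every group received M-CSF. The control group had M-CSF alone, and the other 4 groups had in addition RANKL, the cytokine that turns these precursors into bone-resorbing osteoclasts, or LPS, the bacterial endotoxin, for 4 h or 3 d at 100 ng/mL. There were 3 libraries in each group, 15 in all, and the labels do not say whether they came from separate mice, so the p-values measure the spread between these libraries, which may be technical. The labels also do not say whether the control cells were kept for as long as the cells stimulated for 3 d, so a change seen at 3 d cannot be told apart from time in culture.

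Ligand binding by these receptors is read inside the cell through tyrosine motifs. Clec4e (Mincle), Clec4d (MCL) and Clec4n (Dectin-2) couple to the Fc receptor gamma chain, Clec7a (Dectin-1), the receptor for fungal beta-glucan, carries an activating motif of its own, and Clec5a (MDL-1) works through the adaptor DAP12, and all of these lead to the kinase Syk and the Card9, Bcl10 and Malt1 complex that activates NF-kappaB. Clec4a2 (DCIR) and Clec12a (MICL) carry inhibitory motifs that recruit phosphatases, whereas Clec10a (MGL1), which binds galactose-type sugars, and Cd209a, a mouse relative of DC-SIGN, are best known as uptake receptors of alternatively activated macrophages and dendritic cells. The Fc receptor gamma chain and DAP12 also serve the costimulatory receptors that osteoclast precursors need, so the adaptors of these lectins are shared with the RANKL programme.

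In the mouse genome (build GRCm38) 7 of the 9 genes lie on chromosome 6. *Clec4a2* (chr6:123106428-123143999), *Clec4n* (chr6:123229843-123247021) and *Clec4d* (chr6:123262111-123275265) lie on the plus strand and *Clec4e* (chr6:123281789-123289870) on the minus strand, in a cluster of 8 listed lectin genes that spans 368 kb. *Clec4d* and *Clec4e* face each other with their 3′ ends 6.52 kb apart. *Clec12a* (chr6:129342691-129365303, plus strand) and *Clec7a* (chr6:129461591-129472779, minus strand, listed by the annotation as a polymorphic pseudogene) lie 96.3 kb from each other in the natural killer gene complex, and *Clec5a* (chr6:40574894-40585821, minus strand) lies alone. *Clec10a* is on chromosome 11 (chr11:70156197-70170834, plus strand) and *Cd209a* on chromosome 8 (chr8:3743397-3748984, minus strand). *Clec4a2* overlaps another annotated gene, Gm44132, on its own strand, and the Clec4a and Cd209 genes have close copies, so reads could be split between them and the levels of *Clec4a2* and *Cd209a* are less certain than the rest.

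The 250 bases before the transcription start (RefSeq, build GRCm38.p6) are shown for the 3 receptors that were higher after 4 h of LPS and for *Clec7a*, which showed the largest decrease after 3 d of RANKL. They are written 5′ to 3′ on the gene's strand, and capitals mark matches on either strand to the letters GAGGAA (PU.1, the master factor of myeloid genes) or TTGCNNAA (C/EBP).
Clec4e, chr6:123289872-123290121, minus strand: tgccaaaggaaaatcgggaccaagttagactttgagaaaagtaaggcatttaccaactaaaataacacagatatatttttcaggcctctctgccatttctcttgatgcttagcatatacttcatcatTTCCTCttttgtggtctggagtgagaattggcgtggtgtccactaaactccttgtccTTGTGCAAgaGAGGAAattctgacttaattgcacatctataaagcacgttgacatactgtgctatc
Clec4d, chr6:123261857-123262106, plus strand: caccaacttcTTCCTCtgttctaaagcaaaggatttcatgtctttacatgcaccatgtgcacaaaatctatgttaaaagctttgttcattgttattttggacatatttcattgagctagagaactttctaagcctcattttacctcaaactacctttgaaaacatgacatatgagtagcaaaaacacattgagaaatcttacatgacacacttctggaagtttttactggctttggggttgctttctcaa
Clec5a, chr6:40585806-40586055, minus strand: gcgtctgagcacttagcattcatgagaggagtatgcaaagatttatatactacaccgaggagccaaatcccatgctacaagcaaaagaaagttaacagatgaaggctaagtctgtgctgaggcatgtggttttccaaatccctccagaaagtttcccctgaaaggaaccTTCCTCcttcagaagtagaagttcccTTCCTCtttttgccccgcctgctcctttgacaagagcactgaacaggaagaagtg
Clec7a, chr6:129472780-129473029, minus strand: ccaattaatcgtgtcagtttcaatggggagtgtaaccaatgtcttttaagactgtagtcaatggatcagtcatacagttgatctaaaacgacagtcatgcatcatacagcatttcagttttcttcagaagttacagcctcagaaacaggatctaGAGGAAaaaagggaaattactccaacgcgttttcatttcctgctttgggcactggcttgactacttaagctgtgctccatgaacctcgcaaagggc
The PU.1 letters were found before 5 of the 7 receptors that had a promoter entry (*Clec12a*, *Clec4d*, *Clec4e*, *Clec5a* and *Clec7a*), against 23.3% of 32851 mouse promoter windows of this length. The C/EBP letters were found before *Clec4e*, 66 bases ahead of its start, and *Clec12a*, against 9.56% of windows. The AP-1 letters TGANTCA, which read alike on both strands, were found before *Clec12a* only (6.75% of windows), while the NF-kappaB letters (GGGA and CC with 4 free bases between them, 17.6% of windows) and the ISRE letters (a pair of GAAA blocks with 2 free bases between them, 2.98%) were in none of the 7 windows. In *Clec4e* the C/EBP match and the nearer PU.1 match at position -56 stand side by side without sharing a base. Letter matches do not show binding, and their absence says only that these letters are not in these windows. The RefSeq starts used for *Clec12a*, *Clec4a2* and *Clec5a* lie inside the gene bounds given above. The windows of *Clec12a* and *Clec4a2* (chr6:129349994-129350243 and chr6:123122440-123122689) are wholly within these bounds. That of *Clec5a* overlaps its gene bounds from chr6:40585806 to 40585821. *Clec4n* and *Clec10a* had no entry.

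The libraries were close in depth, with 18306184 to 20330207 fragments on genes, and the levels are given as FPKM (fragments per kilobase of transcript, scaled to the depth of the library), which allows comparison between genes. Macrophage markers were present in every group (8 of 8 above 0). The LPS response markers stood at a summed 13714 to 15551 FPKM after 4 h of LPS against 179 to 976 in control, and 9 of 10 osteoclast markers were higher after 3 d of RANKL, against 16.6% of all tested genes. *Calcr*, among these 9, reached the mean level for a test only through RANKL 3 d. The LPS 3 d libraries were the least alike, with a lowest correlation of 0.942 within the group.

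The summed level of the 9 receptors was 962 to 1389 FPKM in the control libraries, 979 to 1359 after 4 h and 545 to 692 after 3 d of RANKL, and 1294 to 1818 after 4 h and 1949 to 2320 after 3 d of LPS. The RANKL 3 d range lay below the control range and the LPS 3 d range above it. *Clec4d* was the most abundant member by median share in every group, with 36.1 to 46.3% of the sum in control and 60.9 to 73.0% after 3 d of LPS. *Clec7a* held 27.0 to 37.2% of the sum in control and 4.35 to 6.36% after 3 d of LPS, and *Clec12a* went from 9.75 to 11.7% in control to 28.5 to 33.9% after 3 d of RANKL. Outside *Cd209a*, each level rested on at least 151 fragments in a library.

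**Figure D1:**
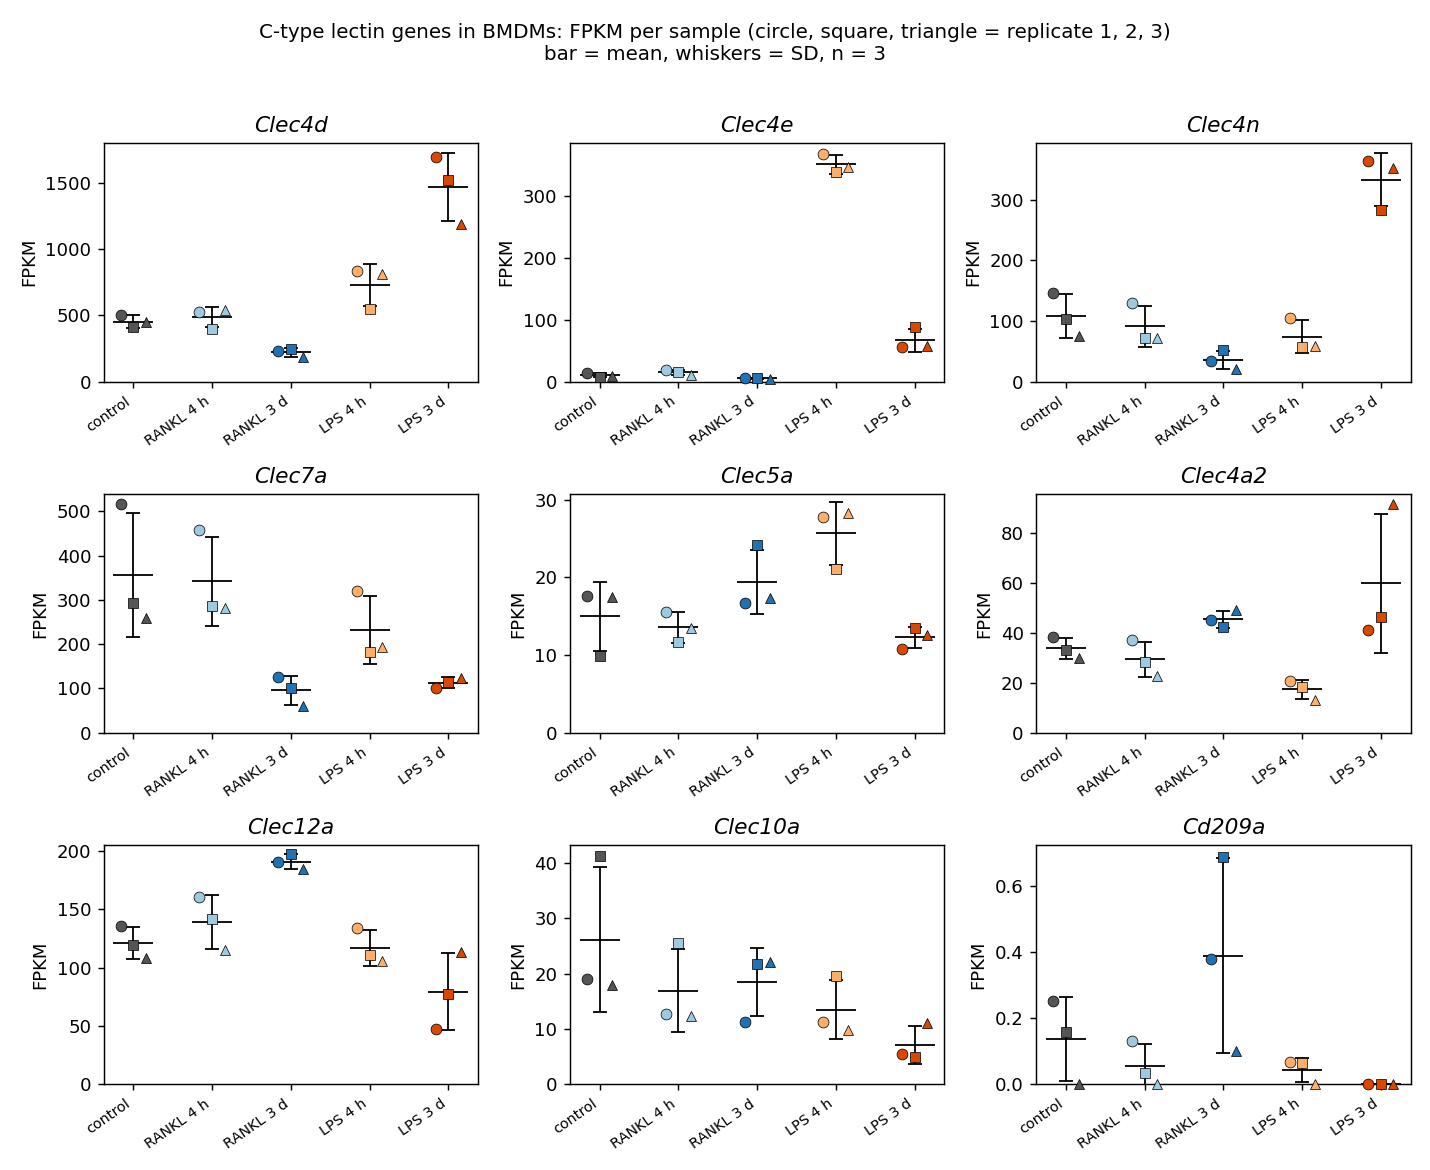
FPKM (y axis, linear from 0, a scale for each gene) of the 9 receptor genes in the 15 BMDM libraries by group (x axis). Symbols are replicates 1, 2 and 3, bars are means and whiskers SD (n = 3, cut off at 0), and the plot shows *Clec4e* at 339 to 367 FPKM after 4 h of LPS against 7.87 to 14.0 in control, and the RANKL 3 d libraries of *Clec4d*, *Clec4n* and *Clec7a* below all control libraries.

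The response to each stimulus was tested against control with limma on log2(FPKM + 0.1), where a gene was called changed at a fold above 1.5 or below 0.66 with a Benjamini-Hochberg adjusted p under 0.05 over all tested genes. None of the 9 receptors changed after 4 h of RANKL, where 0.119% of all tested genes were called; none reached an unadjusted p under 0.05 either, nor did limma-voom on the recovered fragments call any. After 3 d of RANKL, *Clec4d*, *Clec4e*, *Clec4n* and *Clec7a* were lower, 4 of 9 against 7.54% of all tested genes, and *Clec12a* was higher, 1 of 9 against 16.6%. After 4 h of LPS, *Clec4d*, *Clec4e* and *Clec5a* were higher, 3 of 9 against 8.43%, and *Clec4a2* was lower, 1 of 9 against 39.7%. After 3 d of LPS, *Clec4d*, *Clec4e*, *Clec4n* and *Clec4a2* were higher, 4 of 9 against 13.0%, and *Clec7a*, *Clec10a* and *Clec12a* were lower, 3 of 9 against 14.4%. The median log2 change of the 9 receptors was -0.11, -0.46, -0.56 and -0.25 after RANKL 4 h, RANKL 3 d, LPS 4 h and LPS 3 d, beside 0.00, 0.16, -0.52 and 0.08 over all tested genes. The LPS 4 h libraries thus carried a shift of -0.52 in the median gene, and with each library centred on its median gene *Clec4a2* was no longer lower at that time (-0.40, adjusted p = 0.337), while *Clec4d*, *Clec4e* and *Clec5a* stayed called. Centring also turned the 990 higher and 4660 lower genes of LPS 4 h into 1871 and 1529, and it took *Clec12a* at 3 d of RANKL and *Clec4a2* at 3 d of LPS off the calls. These 4 comparisons share the control libraries.

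**Figure D2:**
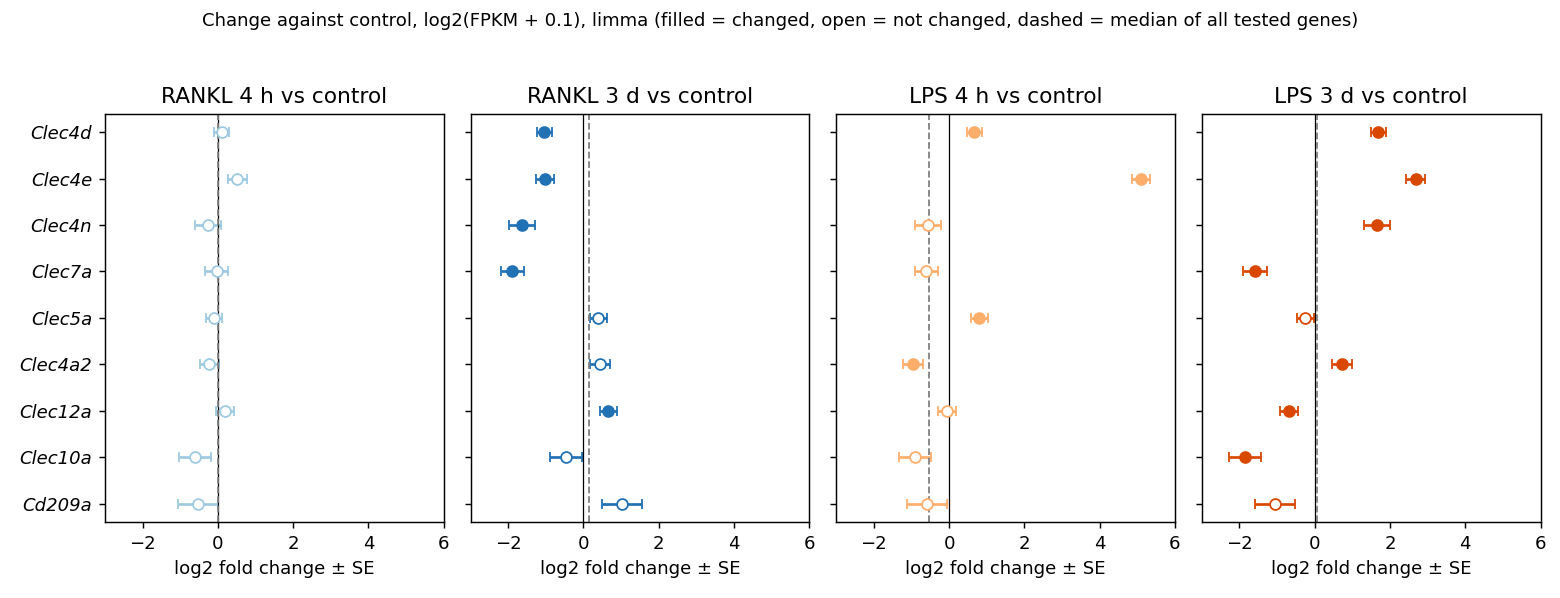
Log2 fold change against control with its SE (x axis) for the 9 receptors (y axis) in the 4 comparisons, from limma on log2(FPKM + 0.1). Filled points passed the fold and p limits, open points did not, and the dashed line is the median of all tested genes, at -0.52 for LPS 4 h; *Clec4e* stands apart at 5.11 after 4 h of LPS.

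*Clec4e*, the receptor for mycobacterial cord factor and for the dead-cell protein SAP130, had the widest range of the 9. It stood at 14.0, 7.87 and 9.24 FPKM in control replicates 1, 2 and 3, at 18.1, 14.9 and 11.3 after 4 h of RANKL and at 6.17, 5.02 and 3.80 after 3 d. With LPS it stood at 367, 339 and 346 FPKM after 4 h and at 55.4, 87.9 and 56.6 after 3 d. All LPS libraries lay above, and all RANKL 3 d libraries below, those of control. The log2 change was 5.11 ± 0.24 (SE) after 4 h of LPS, a 34.5-fold higher level (limma, adjusted p = 4.29e-09), and 2.68 ± 0.24 after 3 d, 6.41-fold (7.45e-06). After 3 d of RANKL it fell by 1.02 ± 0.24 (adjusted p = 0.00692). Its log2 difference at 4 h of RANKL was 0.52 ± 0.24 (adjusted p = 1.0). From 4 h to 3 d of LPS *Clec4e* fell by 2.43 (adjusted p = 1.84e-06). In order of level the groups ran LPS 4 h, LPS 3 d, RANKL 4 h, control and RANKL 3 d, and RANKL 4 h and control were the neighbours that did not differ beyond their spread.

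*Clec4d*, the partner that forms a heterodimer with Clec4e, followed another time course from the neighbouring locus. Control libraries had 501, 409 and 445 FPKM, and those treated with RANKL 526, 398 and 537 after 4 h and 228, 249 and 186 after 3 d. LPS libraries had 832, 546 and 809 FPKM after 4 h and 1695, 1519 and 1188 after 3 d. The 3 d libraries of both stimuli were thus clear of control on opposite sides. *Clec4d* rose by 0.67 ± 0.20 on the log2 scale after 4 h of LPS (adjusted p = 0.00969) and by 1.69 ± 0.20 after 3 d (3.98e-05), and it fell by 1.04 ± 0.20 after 3 d of RANKL (0.00175). The call at 4 h of LPS was lost on the fold limit without LPS 4 h replicate 1 (0.56) or replicate 3 (0.58). Between 4 h and 3 d of LPS *Clec4d* gained 1.02 (adjusted p = 0.000428) while *Clec4e* fell by 2.43, and with median centring this gain was 0.37 (adjusted p = 0.148). The ratio of *Clec4e* to *Clec4d* FPKM had a median of 0.0207 in control, 0.441 after 4 h of LPS and 0.0477 after 3 d.

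*Clec4n*, which binds fungal mannans, was higher late but not early in LPS. Its control libraries had 147, 103 and 74.7 FPKM, and after RANKL 130, 71.8 and 71.9 were measured at 4 h and 33.9, 51.9 and 21.2 at 3 d. After LPS it stood at 105, 57.8 and 58.1 FPKM at 4 h, overlapping control, and at 364, 284 and 352 at 3 d, above all other libraries. It rose by 1.67 ± 0.35 after 3 d of LPS (adjusted p = 0.00229) and fell by 1.64 ± 0.35 after 3 d of RANKL (0.00331). Its log2 difference at 4 h of LPS was -0.56 ± 0.35 (adjusted p = 0.176), which is near the shift of the median gene, and with median centring it was 0.01. Control, RANKL 4 h and LPS 4 h, next to each other in order of level, did not differ beyond their spread.

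*Clec7a* was the member that was lower at 3 d of both stimuli. Control replicates had 516, 294 and 260 FPKM, and RANKL replicates 459, 286 and 282 at 4 h and 126, 100.3 and 61.1 at 3 d. With LPS the levels were 319, 183 and 194 FPKM at 4 h and 101, 115 and 124 at 3 d. No 3 d library of either stimulus reached the lowest control library. *Clec7a* fell by 1.89 ± 0.31 after 3 d of RANKL (adjusted p = 0.000673), and it fell by 1.59 ± 0.31 after 3 d of LPS (0.00158). The RANKL 3 d and LPS 3 d levels differed by -0.30 ± 0.31 (adjusted p = 0.461), which does not show that they were alike. At 4 h of LPS the difference from control was -0.60 ± 0.31 (adjusted p = 0.112); with the replicate number as a block it was called (adjusted p = 0.0326), as it was without LPS 4 h replicate 1 (-0.85, adjusted p = 0.0405).

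*Clec5a*, which recognises viral and bacterial sugars, had its highest mean at 4 h of LPS, which did not differ from the next, RANKL 3 d, beyond the spread (adjusted p = 0.109). It had 17.7, 9.90 and 17.5 FPKM in control, 15.6, 11.7 and 13.4 after 4 h of RANKL and 16.8, 24.2 and 17.3 after 3 d. LPS libraries had 27.8, 21.0 and 28.3 FPKM after 4 h and 10.8, 13.5 and 12.6 after 3 d. The LPS 4 h libraries lay above all control libraries and overlapped those of RANKL 3 d, and control replicate 2 was the lowest of all 15. *Clec5a* rose by 0.81 ± 0.22 after 4 h of LPS (adjusted p = 0.00635), a call lost on the fold limit without control replicate 2 (0.53), and it fell by 1.05 between 4 h and 3 d of LPS (adjusted p = 0.00081). Its differences from control after 3 d were 0.40 ± 0.22 with RANKL (adjusted p = 0.185) and -0.25 ± 0.22 with LPS (adjusted p = 0.407).

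*Clec12a* and *Clec4a2* are the inhibitory members of the set. *Clec12a*, which senses uric acid crystals and dead cells, had 136, 120 and 108 FPKM in control, 161, 142 and 115 after 4 h of RANKL and 191, 198 and 185 after 3 d. With LPS it had 134, 110.4 and 105 FPKM after 4 h and 47.4, 77.4 and 114 after 3 d. All RANKL 3 d libraries were above control, and the LPS 3 d libraries spread the widest, with replicate 3 inside the control range. *Clec12a* rose by 0.66 ± 0.24 after 3 d of RANKL (adjusted p = 0.0479). That call was lost with the replicate block (adjusted p = 0.0576), with median centring (0.44, adjusted p = 0.252), and on leaving out any 1 of the 6 control and RANKL 3 d libraries (adjusted p = 0.0678 to 0.124). It fell by 0.69 ± 0.24 after 3 d of LPS (adjusted p = 0.0363), a call lost without LPS 3 d replicate 1 (-0.36, adjusted p = 0.169), LPS 3 d replicate 2 (adjusted p = 0.0746), control replicate 1 (0.112) or control replicate 2 (0.0782). The direct difference between both stimuli at 3 d was larger, at 1.35 ± 0.24 in favour of RANKL (adjusted p = 0.000422), and it stayed called without any 1 library.

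*Clec4a2* had 38.2, 33.0 and 30.0 FPKM in control, 37.0, 28.2 and 22.8 after 4 h of RANKL and 44.9, 42.4 and 49.1 after 3 d. LPS libraries had 20.8, 18.3 and 13.3 FPKM after 4 h and 41.2, 46.2 and 91.6 after 3 d. It fell by 0.96 ± 0.26 after 4 h of LPS (adjusted p = 0.00619) and rose by 0.73 ± 0.26 after 3 d (0.0431), so that the 3 d level was 1.70 ± 0.26 log2 units above the 4 h level (7.05e-05). The rise at 3 d rested on LPS 3 d replicate 3, at 91.6 FPKM, without which it was 0.38 (adjusted p = 0.155). It also lost its call without control replicate 1 (adjusted p = 0.0544), 2 (0.0961) or 3 (0.117) and with median centring (0.65, adjusted p = 0.115). All RANKL 3 d libraries were above control, but the log2 difference of 0.43 ± 0.26 did not pass the test (adjusted p = 0.224).

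Of the uptake receptors, *Clec10a* had 19.1, 41.3 and 18.0 FPKM in control, 12.7, 25.5 and 12.4 after 4 h of RANKL and 11.3, 21.8 and 22.2 after 3 d. With LPS it had 11.2, 19.6 and 9.70 FPKM after 4 h and 5.35, 4.88 and 11.1 after 3 d. The LPS 3 d libraries were below all control libraries, and *Clec10a* fell by 1.85 ± 0.42 there (adjusted p = 0.00428). After 4 h of LPS the difference was -0.91 ± 0.42 (adjusted p = 0.0793), which was called with the replicate block (adjusted p = 0.0414) and without LPS 4 h replicate 2 (-1.21, adjusted p = 0.0385). With RANKL for 3 d it was -0.46 ± 0.42 (adjusted p = 0.434).

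*Cd209a* was at the edge of detection. It reached the mean of 0.1 FPKM needed for a test only through RANKL 3 d, at 0.390 FPKM. The other group means were 0.136 in control, 0.0545 at 4 h of RANKL, 0.0428 at 4 h of LPS and 0 at 3 d of LPS. Calls that set its RANKL 3 d level higher are therefore no support of their own. *Cd209a* was counted at 8, 5 and 0 fragments in control, 4, 1 and 0 after 4 h of RANKL and 11, 21 and 3 after 3 d. LPS libraries had 2, 2 and 0 fragments after 4 h and 0, 0 and 0 after 3 d. The 3 libraries at 0 after 3 d of LPS lay below all RANKL 3 d libraries. The RANKL 3 d mean of 0.390 FPKM was 3.97-fold the level that 3 fragments per library would give in the LPS 3 d group. This ratio allows for counting error in the LPS 3 d libraries only. It is no lower bound, since RANKL 3 d replicate 3 itself had 3 fragments. Without RANKL 3 d replicate 2, the library with 21 fragments, that mean was 0.2395 FPKM and the ratio 2.44-fold. Its differences from control did not pass the test at either 3 d time (adjusted p = 0.154 with RANKL and 0.132 with LPS), although that with RANKL did without RANKL 3 d replicate 3 (adjusted p = 0.039) and that with LPS without control replicate 3 (adjusted p = 0.0339).

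Setting RANKL against LPS at the same time asked which receptors told the stimuli apart. At 4 h 2 of the 9 were lower with RANKL, against 8.98% of all tested genes, and 1 was higher, against 41.0%. The lower ones were *Clec4e* (-4.59) and *Clec5a* (-0.91), and *Clec4a2* was 0.74 higher (adjusted p = 0.025), a difference of 0.18 after median centring (adjusted p = 0.693), which left 0 higher and 3 lower, *Clec4d* being added. Over all 11743 tested genes, centring left 1580 higher and 1905 lower. The *Clec4a2* call was also lost without RANKL 4 h replicate 1 (0.56) or 2 (adjusted p = 0.0516) or without LPS 4 h replicate 3 (0.56). *Clec4d* differed by -0.57 (adjusted p = 0.0224), short of the fold limit, and passed it without RANKL 4 h replicate 1 (-0.63) or 3 (-0.65) or LPS 4 h replicate 2 (-0.76). *Clec7a*, at 0.57 (adjusted p = 0.128), passed the p limit but not the fold limit with the replicate block (adjusted p = 0.0395) and was called without LPS 4 h replicate 1 (0.83, adjusted p = 0.0457).

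At 3 d 3 of the 9 receptors were lower with RANKL than with LPS, against 12.8% of all tested genes, and 4 were higher, against 23.3%. *Clec4d*, *Clec4e* and *Clec4n*, the gamma chain-coupled receptors, were lower with RANKL (log2 differences of -2.73, -3.70 and -3.31, adjusted p = 4.3e-07, 2.45e-07 and 5.76e-06). *Clec12a* (1.35), *Clec10a* (1.40, adjusted p = 0.0158), *Clec5a* (0.64, adjusted p = 0.0287) and *Cd209a* were higher with RANKL. *Cd209a* could be tested only through its RANKL 3 d level, so its call is no support of its own. The *Clec10a* call was lost without RANKL 3 d replicate 2 or 3 or LPS 3 d replicate 1 or 2 (1.18 to 1.24, adjusted p = 0.0575 to 0.0685). The *Clec5a* call was lost without RANKL 3 d replicate 2 (0.48) or LPS 3 d replicate 1 (0.55) and with median centring (0.51, adjusted p = 0.1). *Clec4a2* and *Clec7a* did not pass, with differences of -0.30 ± 0.26 and -0.30 ± 0.31.

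From 4 h to 3 d of RANKL 4 of the 9 receptors were lower, against 6.83% of all tested genes, and 1 was higher, against 16.4%. From 4 h to 3 d of LPS 4 were lower, against 13.9%, and 3 were higher, against 44.2%. With RANKL, *Clec7a* (-1.86), *Clec4e* (-1.54), *Clec4n* (-1.39) and *Clec4d* (-1.14) fell, and *Cd209a* rose on 3 to 21 fragments against 0 to 4 (1.54, adjusted p = 0.0408). *Cd209a*, the 1 higher receptor, could be tested only through RANKL 3 d. The *Cd209a* call was lost without RANKL 4 h replicate 2 or 3 or RANKL 3 d replicate 1 or 2 (adjusted p = 0.098 to 0.162). Limma-voom on fragments (adjusted p = 0.0712), pseudocount 0.01 (0.099), median centring (0.0861) and only the groups compared (0.0798) also lost it. At pseudocount 1 it was lost on the fold limit (0.38). With LPS, *Clec4n* (2.23), *Clec4a2* (1.70) and *Clec4d* (1.02) rose, and *Clec4e* (-2.43), *Clec5a* (-1.05), *Clec7a* (-0.99) and *Clec12a* (-0.64) fell. *Clec7a* lost this call without LPS 4 h replicate 1 (-0.74, adjusted p = 0.0647), and *Clec12a* without LPS 4 h replicate 1 (-0.53) or LPS 3 d replicate 1 (-0.31) or 2 (adjusted p = 0.0528). *Clec10a* gained one without LPS 3 d replicate 3 (-1.31, adjusted p = 0.0175). The split of lower and higher calls became 4 and 0 with RANKL and 5 and 2 with LPS under median centring, and 4 and 4 with RANKL when FPKM were rescaled to equal sums. Over all 11743 tested genes, centring gave 1351 lower and 1141 higher with RANKL and 3224 lower and 2209 higher with LPS. Rescaling gave 632 lower and 2474 higher with RANKL. The change over time differed between the stimuli for 7 of the 9 receptors, a test that 52.0% of all tested genes passed (limma, adjusted p under 0.05). *Cd209a*, among these 7, could be tested only through RANKL 3 d.

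The 8 lectin genes of the chromosome 6 cluster did not move as a block. At 3 d of LPS, where 13.0% of all genes tested were higher and 14.4% lower, 6 of them were higher, *Clec4e* (2.68), *Clec4d* (1.69), *Clec4n* (1.67), *Clec4a1* (1.42), *Clec4a3* (0.86) and *Clec4a2* (0.73), and *Clec4b1* (-1.96) and *Clec4b2* (-3.91) between them were lower. At 3 d of RANKL, where 7.54% of all genes were lower, *Clec4b2* (-3.55), *Clec4n* (-1.64), *Clec4d* (-1.04), *Clec4e* (-1.02) and *Clec4a3* (-0.82) were lower, and *Clec4a2* at 0.43 was the only one of the 8 with a positive difference. At 4 h of LPS the log2 changes ran from 5.11 for *Clec4e* at one end of the cluster to -1.60 for *Clec4b2* (adjusted p = 0.0561). Against 8.43% of all genes higher and 39.7% lower at that time, *Clec4d* (0.67) was higher and *Clec4a3* (-0.71), *Clec4a2* (-0.96) and *Clec4b1* (-1.10) were lower, and none of these 3 stayed lower with median centring (-0.14, -0.40 and -0.53). Centring added calls for *Clec4a1*, which became higher at 4 h of LPS (0.87, limma, adjusted p = 0.032) and lower at 3 d of RANKL (-0.84, adjusted p = 0.0443).

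**Figure D3:**
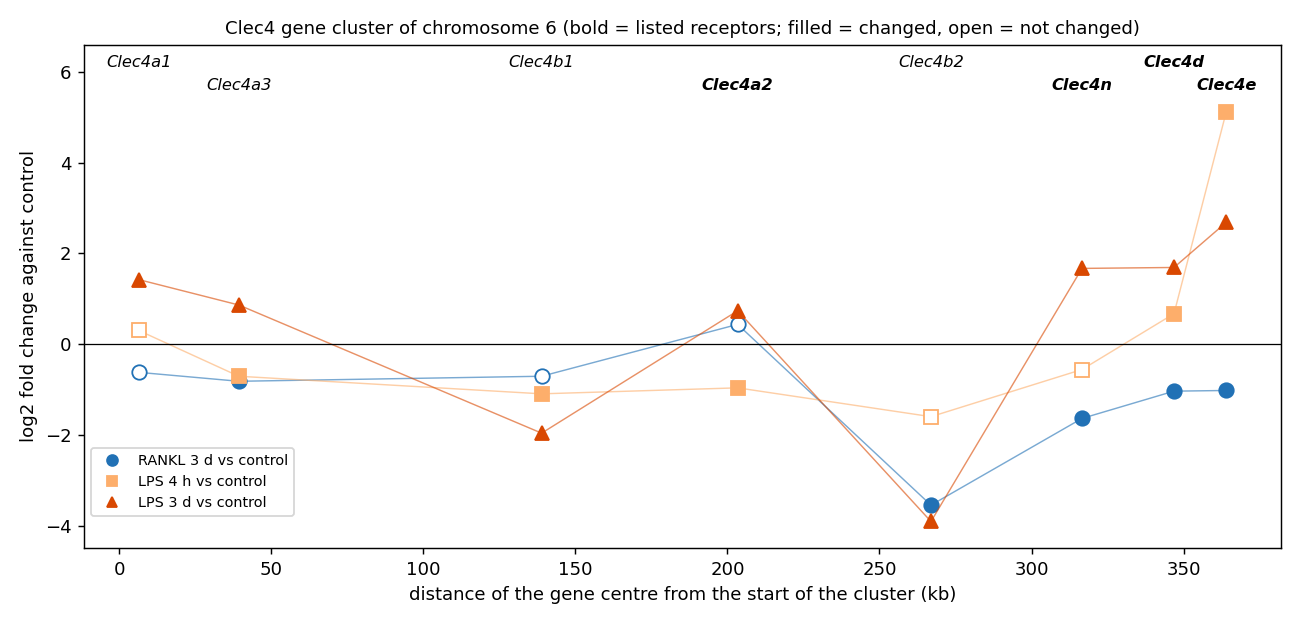
Log2 fold change against control (y axis) of the 8 lectin genes of the chromosome 6 cluster by the distance of the gene's centre from the start of the cluster in kb (x axis). Circles are RANKL 3 d, squares LPS 4 h and triangles LPS 3 d, filled where the gene was called, with the followed receptors in bold; the 3 genes at the right end are higher with LPS 3 d and lower with RANKL 3 d.

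The machinery downstream of these receptors was read from a list of 28 measured adaptor, kinase, phosphatase and NF-kappaB genes. *Tyrobp*, which encodes DAP12, had no values and was not analysed. At 4 h of RANKL, with 0.119% of all genes tested called, 1 was higher, *Nfkb2* (1.05, adjusted p = 0.0449, and 0.0905 with median centring), and the median log2 difference over the list was 0.02. At 3 d of RANKL, with 16.6% of all genes higher and 7.54% lower, 6 were higher and 1 lower (median 0.16, 5 higher and 4 lower with centring), with *Src* (2.74), *Nfatc1*, the master factor of osteoclasts (2.42), and *Nfkb2* (2.24) ahead and the adaptor *Pik3ap1* (-0.99) the lower one. At 4 h of LPS, with 8.43% higher and 39.7% lower over all genes, 10 were higher and 5 lower (median 0.16, 15 and 3 with centring), led by *Nfkb2* (3.89), *Malt1* (3.84), *Src* (3.77) and *Nfatc2* (-3.21). At 3 d of LPS, with 13.0% higher and 14.4% lower over all genes, 7 were higher and 2 lower (median 0.27, 7 and 4 with centring), led by *Src* (1.56), *Nfkb2* (1.49), *Relb* (1.39) and *Fyn* (-1.18). With centring, 1167 of all 11743 tested genes were higher and 1428 lower at 3 d of RANKL. These counts were 1871 and 1529 at 4 h of LPS and 1212 and 1887 at 3 d of LPS. *Card9*, the adaptor on which these receptors converge, fell by 1.39 after 4 h of LPS (adjusted p = 8.66e-07), and *Syk* rose by 0.88 after 4 h and 0.83 after 3 d of LPS. With centring these were -0.82 for *Card9* and 1.44 and 0.74 for *Syk*. *Card9* at 3 d of RANKL (-0.50) fell short of the fold limit but was called with centring (-0.72, adjusted p = 0.00119). *Fcer1g*, which encodes the gamma chain, had 1085 ± 164 FPKM in control, 718 ± 91.5 after 3 d of RANKL and 1198 ± 59.1 after 3 d of LPS (SD, n = 3). Its RANKL 3 d difference of -0.59 (adjusted p = 0.0227) fell just short of the fold limit, which it passed with centring (-0.81, adjusted p = 0.0145). At 4 h of LPS its difference of 0.09 was not called, but with centring it was higher (0.66, adjusted p = 0.0301).

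Genes with the most similar course over the 15 libraries were found by Pearson's r on log2(FPKM + 0.1) among 9485 genes, a description in which the points share the 5 groups. *Clec4e* ran closest to *Rhbdf2* (0.986) and the cytokine genes *Il1a* (0.985) and *Il6* (0.984). *Clec4d* ran closest to *Slc25a37* (0.966), *Clec4n* to the protease gene *Ctsh* (0.95), *Clec4a2* to *Acadvl* (0.942) and *Clec10a* to *Pdia6* (0.956). *Clec7a* ran closest to *Pld3* (0.975), with *Clec1b*, a platelet and myeloid lectin of the same gene complex, at 0.964, and *Clec12a* to *Rpl37rt* (0.964). *Clec5a* had the weakest best match, *Tra2a* (0.858), and *Cd209a* ran closest to *Apln* (0.875). Among the 9 themselves, *Clec4d* and *Clec4n* were the most alike pair (0.872) and *Clec4d* and *Clec12a* the most opposed (-0.849).

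Replicates of one group differed in a way that some members shared across groups. *Clec7a* and *Clec4n* were highest in replicate 1 in 4 of the 5 groups each, and *Clec10a* was highest in replicate 2 in control, RANKL 4 h and LPS 4 h. In the LPS 3 d group *Clec7a*, *Clec10a*, *Clec4a2* and *Clec12a* were all highest in replicate 3.

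**Figure D4:**
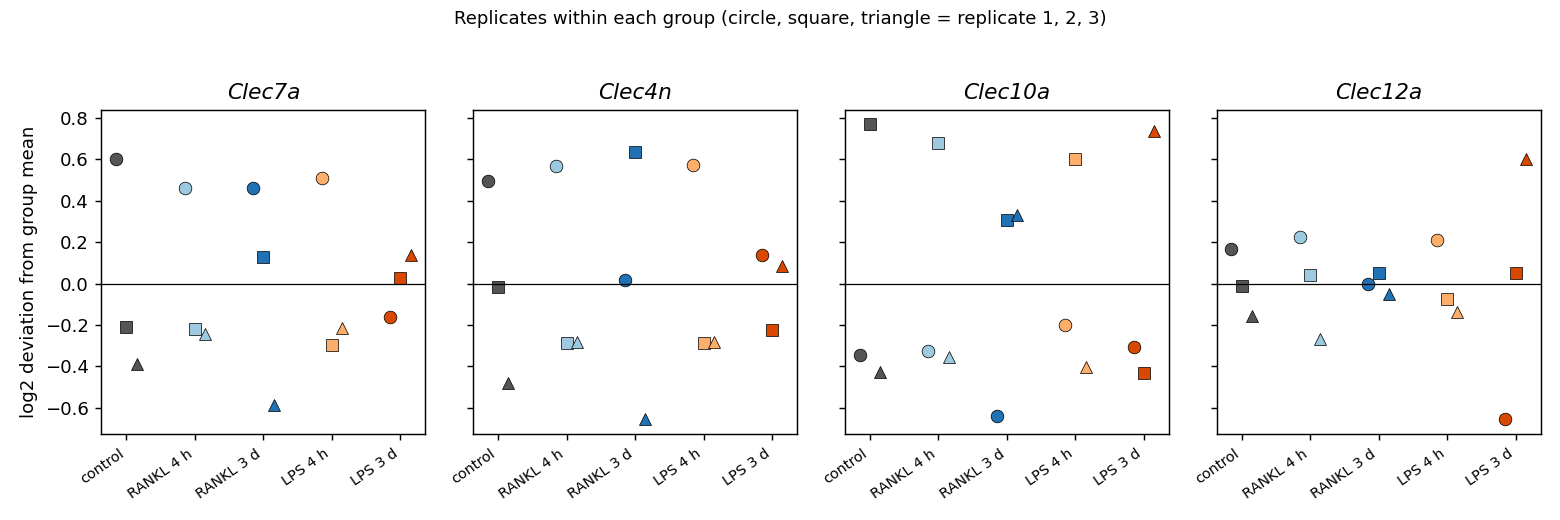
Log2 deviation of each library from its group mean (y axis) for *Clec7a*, *Clec4n*, *Clec10a* and *Clec12a* in the 5 groups (x axis), with symbols for replicates 1, 2 and 3. Replicate 1 of *Clec7a* is the highest in 4 groups, and replicate 2 of *Clec10a* in control, RANKL 4 h and LPS 4 h.

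Markers of other marrow cells moved along with part of these changes. The summed level of 12 neutrophil and granulocyte markers was 7958 to 24464 FPKM in control, 7553 to 21912 and 6694 to 21401 after 4 h of RANKL and LPS, 1925 to 7716 after 3 d of RANKL and 324 to 2060 after 3 d of LPS, with none of the 12 at 0 in any group. That of 4 monocyte markers was 477 to 787 FPKM in control, 82.8 to 337 after 3 d of RANKL and 216 to 392 after 3 d of LPS. Of the 12 granulocyte markers 5 were lower and 0 higher at 3 d of RANKL, where *Retnlg* (1.05) and *Ly6g* (0.17) had positive differences that did not pass the test, and 11 were lower and 1 higher, *Mmp8* (1.30, adjusted p = 0.0437), at 3 d of LPS. Of the 4 monocyte markers 2 were lower and 1 higher at 3 d of both stimuli, the higher one being *Fn1* (2.20 with RANKL and 1.25 with LPS). Over all tested genes 7.54% were lower and 16.6% higher at 3 d of RANKL, and 14.4% lower and 13.0% higher at 3 d of LPS. At 3 d of RANKL, where the granulocyte and monocyte sums lay below control, *Clec4d*, *Clec4e*, *Clec4n* and *Clec7a* were lower and *Clec12a* higher. Both sums also lay below control at 3 d of LPS, where the granulocyte sum had its lowest range. There *Clec4d*, *Clec4e*, *Clec4n* and *Clec4a2* were higher, and *Clec7a*, *Clec10a* and *Clec12a* were lower. Stromal markers (9, summed) stood at 140 to 309 FPKM in control and 389 to 1822 after 3 d of RANKL, and dendritic cell markers (9, summed) at 24.3 to 45.6 in control and 4.83 to 9.50 after 3 d of LPS, where 2 of the 9 were at 0, *Cd209a* being one of the 9. In bulk RNA, fewer cells of a type and less RNA per cell cannot be told apart, and the part of these cells in the receptor changes was not tested.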

How the data were processed

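RNA was extracted with a Qiagen kit and sequenced from libraries of a SMARTER kit. Per the labels the authors assembled and quantified reads with StringTie, against builds named GRCm38.p4 and mm10, and deposited FPKM values per gene and sample; the aligner and the versions are not given in the sources used here. Of 20090 entries 1 was incomplete and left out, and 4453 were at 0 in every sample. The incomplete entry, *Ttk*, was the last, so genes later in the alphabet, such as *Tyrobp* (DAP12), were not analysed. FPKM steps gave back whole fragment counts (within 0.01) for 14485 of 14485 entries above 0 in 3 or more samples, which set the depth. The 11743 genes averaging 0.1 FPKM or more were tested with limma 3.58.1 (lmFit and eBayes with trend, R 4.3.3) on log2(FPKM + 0.1), with all 5 groups in 1 fit. On simulated data for RANKL 3 d against control the fit called 183 of 200 changed and 10 of 11543 unchanged genes. The planted changes were larger than any receptor change at RANKL 3 d, and the simulated libraries shared no deviations. These counts therefore do not give the sensitivity for the receptor calls. The fold limits are those of the study, which paired them with unadjusted p-values. Folds on this scale understate changes of low genes. Same-numbered replicates had positive r of deviations in every pair of groups without LPS 3 d (0.103 to 0.842), and there the numbers were taken to pair the samples. This was least clear for RANKL 3 d. Replicate 2 of control and of RANKL 4 h was closer to another RANKL 3 d number (0.2645 and 0.208) than to number 2 (0.136 and 0.162). LPS 3 d shared only the number. Alternatives were another pseudocount, no filter, rescaling, median centring, the replicate block, limma-voom on recovered fragments, no trend, only the groups compared, unadjusted p, no fold limit and leaving out each library. The members and lists were chosen with earlier results of these data known. Positions came from GENCODE M21 and promoters from RefSeq. Named genes were the members, at most 4 genes of each list and comparison by size of change, and the 3 most similar genes of each member; *Card9*, *Syk* and *Fcer1g* were named after their values were seen.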

Additional observations from a re-analysis of the deposited data

Results flagged for a closer look

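For 7 of the 9 receptors the change from 4 h to 3 d differed between the stimuli by the test of the difference itself (the log2 change with RANKL minus that with LPS, limma, adjusted p under 0.05 over all tested genes, a limit that 52.0% of those genes passed). The difference was -2.16 ± 0.28 (SE) for *Clec4d* (adjusted p = 3.8e-05) and -3.61 ± 0.49 for *Clec4n* (5.31e-05), both of which fell with RANKL and rose with LPS. It was 1.56 ± 0.31 for *Clec5a* (adjusted p = 0.00101) and 1.10 ± 0.34 for *Clec12a* (0.0136), which fell with LPS. These 4 kept their call in every alternative run.

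For *Clec4a2* the difference was -1.04 ± 0.37 (adjusted p = 0.0303), and with median centring it was -0.61 (adjusted p = 0.261). For *Clec4e*, which fell with both stimuli, it was 0.88 ± 0.35 (adjusted p = 0.0456), and for *Cd209a*, on 0 to 21 fragments a library, 2.02 ± 0.74 (0.0348). *Cd209a* could be tested only through its RANKL 3 d level. The *Clec4e* call was lost without any 1 of 9 of the 12 libraries (adjusted p = 0.0658 to 0.114 in those), and the *Cd209a* call without any 1 of 9 of them (0.0517 to 0.0924). Limma-voom on fragments also lost the *Clec4e* (adjusted p = 0.0578) and *Cd209a* (0.0555) calls. *Clec4a2* lost its call without RANKL 4 h replicate 1, RANKL 3 d replicate 1 or 2 or LPS 4 h replicate 3 (adjusted p = 0.0516 to 0.0782).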

How the results depend on the processing

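Of 45 receptor calls over the 8 comparisons and the difference between stimuli, 28 held in every alternative, among them all RANKL 3 d calls against control but *Clec12a* and the LPS 3 d calls of *Clec4d*, *Clec4e*, *Clec4n*, *Clec7a* and *Clec10a*. With FPKM rescaled to equal sums, 8 instead of 5 receptors changed between 4 h and 3 d of RANKL, with *Clec5a*, *Clec4a2* and *Clec12a* added. Rescaling also took the higher genes among all 11743 from 1930 to 2474 and the lower ones from 802 to 632. Leaving out 1 library gave 4 to 5 changed receptors for RANKL 3 d, 3 to 5 for LPS 4 h, 5 to 7 for LPS 3 d and 0 for RANKL 4 h against control, 2 to 4 between the stimuli at 4 h and 5 to 7 at 3 d, 4 to 5 over time with RANKL and 5 to 8 with LPS, and 4 to 7 for the difference between stimuli over time, where 4 were left without RANKL 3 d replicate 1 or 2.

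Directions turned only for differences that were not called. With median centring the log2 differences were 0.0056 for *Clec4n* and 0.51 for *Clec12a* in LPS 4 h against control, -0.26 for *Clec4n*, -0.32 for *Clec12a*, -0.26 for *Clec10a* and -0.51 for *Cd209a* in RANKL 4 h against LPS 4 h, and -0.074 for *Clec10a* in RANKL 3 d against RANKL 4 h. Without 1 library, RANKL 4 h against control ran from -0.26 to 0.27 for *Clec7a* and from -0.38 to 0.034 for *Clec5a*, and LPS 4 h against control from -0.16 to 0.031 for *Clec12a*. RANKL 4 h against LPS 4 h ran from -0.035 to 0.61 for *Clec10a* and from -0.27 to 0.33 for *Cd209a*, RANKL 3 d against LPS 3 d from -0.52 to 0.056 for *Clec4a2*, and RANKL 3 d against RANKL 4 h from -0.033 to 0.49 for *Clec10a*. The cause was not tested.

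With the replicate block in comparisons with LPS 3 d, whose libraries share only a number with the others (r of deviations -0.229 to 0.184), *Clec4a2* lost its call against control (adjusted p = 0.0503), and *Cd209a* (0.0439), *Clec10a* against LPS 4 h (0.0314) and *Clec7a* in the difference between stimuli (0.0335) gained one. Elsewhere the block changed no call other than those of *Clec12a*, *Clec7a* and *Clec10a* given beside them. *Clec4a2* and *Clec12a* at 3 d of LPS also lost their calls without the filter (adjusted p = 0.0603 and 0.0516) and with only the groups compared (0.0995 and 0.12), and *Clec12a* at 3 d of RANKL with pseudocount 0.01 (0.0507) and without the filter (0.0645). *Cd209a* lost its RANKL 3 d against LPS 3 d call at pseudocount 1 on the fold limit (0.45). With no fold limit 13 signalling genes changed at 3 d of RANKL against 7, and 14 at 3 d of LPS against 9, and at 4 h of RANKL the alternatives gave 0 to 2 against 1. The share of all genes called without the fold limit is not given here, so the 13 and 14 cannot be read against it. Low fragment counts limit *Cd209a*.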

Other observations

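Other C-type lectin genes were read from a list of 41 measured genes, 29 of which could be tested. At 4 h of LPS 6 were higher and 5 lower (9 and 2 with median centring), against 8.43% of all genes tested higher and 39.7% lower. With centring, 1871 of all 11743 tested genes were higher and 1529 lower. *Cd69*, the early activation antigen, went from 4.38 ± 3.02 to 185 ± 31.8 FPKM (SD, n = 3; log2 change 5.57, limma, adjusted p = 2.75e-07), *Olr1*, the oxidised LDL receptor, rose by 3.26 and the selectin gene *Sele* by 3.16, and *Cd93* fell by 2.03. *Sele* could be tested only through its LPS 4 h level (a mean of 1.43 FPKM, against 0 to 0.12 elsewhere), so its call is no support of its own. At 3 d of LPS 4 were higher and 13 lower, against 13.0% and 14.4% of all genes. *Mgl2*, the close relative of *Clec10a*, fell by 4.19 (adjusted p = 0.000202), and *Clec4b2* (-3.91) and *Selp* (-2.41) were also lower.

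At 3 d of RANKL 3 were higher and 7 lower, against 16.6% and 7.54% of all genes, with *Clec4b2* (-3.55), *Clec1b* (-2.89) and *Selp* (-2.16) among the lower. At 4 h of RANKL, where 0.119% of all genes were called, none was called, with 0 also at unadjusted p and by limma-voom. *Cd207*, which encodes langerin of Langerhans cells and was picked after its values were seen, had 0.393 ± 0.202 FPKM at 3 d of RANKL and a mean of 0.0102 in control, and was too low to be tested. *Cd209f*, also picked after its values were seen, was higher there (1.46, adjusted p = 0.0492), at 0.466 ± 0.297 FPKM, a call lost with median centring (1.24, adjusted p = 0.102). *Cd209f* reached the mean of 0.1 FPKM needed for a test only through RANKL 3 d, with group means of 0.0369 to 0.0979 elsewhere. Its call is therefore no support of its own.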
